A study of Mus musculus with 4 samples.

Results

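The protein kinase C genes described here are 9 of the 22802 gene loci of a table of FPKM values. By its name, FPKM is fragments scaled to transcript length and to mapped fragments, but the scaling used here is not given. The 9 genes were taken by gene symbol. They comprise the classical genes Prkca and Prkcb and the calcium-independent genes Prkcd, Prkce, Prkch and Prkcq. The atypical genes Prkci and Prkcz and the protein kinase D gene Prkd1 complete the 9. The family was picked because Prkcb is among the largest rises in laminin-positive cells, so the difference of Prkcb is given as a description, with no test. Each of the 9 symbols matched a row of its own, 7 passed the filter on low values (at least 1 FPKM in at least 2 libraries) and were tested, and 2, Prkch and Prkcz, were below it.

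RNA was sequenced from testicular interstitial cells of C57BL/6J mice carrying mFLE-Cre and CAG-CAT-EGFP, a reporter in which Cre recombinase switches on EGFP from the broadly active CAG promoter. At postnatal day 10 the testes were dispersed and cells were sorted into 2 laminin-positive and 2 laminin-negative samples. Cre and reporter are shared by both populations. The labels do not spell out the mFLE element that drives Cre or say whether animals were pooled. Every sample label calls its cells EGFP-positive, whereas the design text gives weak EGFP for the laminin-negative sort, so laminin staining and EGFP level cannot be told apart. No label ties the samples to separate animals, so the p-values reflect the spread among 4 samples alone, and that spread may be technical.

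Protein kinase C enzymes are serine/threonine kinases that relay signals from receptors coupled to phospholipase C. Classical members need calcium and the membrane lipid diacylglycerol, and the calcium-independent members around Prkcd need diacylglycerol alone. Atypical members need neither and work in cell polarity complexes. Calcium-independent is used here as the name of the class of Prkcd, Prkce, Prkch and Prkcq, and does not cover the atypical members. Protein kinase D1 also binds diacylglycerol and is activated by calcium-independent members. In smooth muscle, classical and calcium-independent members take part in sustained contraction.

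FPKM summed to between 491475 and 503950 in the laminin-positive and between 532323 and 548986 in the laminin-negative libraries. Neither the labels nor the table give a total of sequenced fragments, and low values did not fall on whole multiples of a step, so the depth is unknown. Values under about 1 FPKM therefore have an unknown counting error. Of the 12348 genes with at least 1 FPKM in at least 2 libraries, laminin-positive cells had 3288 (26.6%) higher and 3245 (26.3%) lower at a limma adjusted p under 0.05. With libraries set to equal FPKM sums the split became 4255 higher and 2382 lower (64.1% higher, against 50.3%), and the median log2 difference over all genes moved to 0.11 from 0.01.

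The sorted cells were checked against marker genes. Summed FPKM of 6 smooth muscle and myoid markers lay between 5345 and 5404 in laminin-positive and between 154 and 167 in laminin-negative libraries, and all 6 were called higher. The 6 pericyte markers summed to between 309.6 and 315 in laminin-positive and between 46.05 and 49.6 in laminin-negative libraries, and all 6 were called higher. Of 6 interstitial markers, led by Tcf21, 3 were higher and 2 lower, with sums of 1373 to 1401 in laminin-positive and 1050.3 to 1094 in laminin-negative libraries. The 5 steroidogenic Leydig markers found as rows of their own were all lower, at 73.6 to 80.2 FPKM in laminin-positive against 744 to 746 FPKM in laminin-negative libraries. Of 7 macrophage markers, led by Lyz2, 5 were higher and 2 were below the filter, with sums of 24.7 to 27.5 in laminin-positive and 3.55 to 5.94 FPKM in laminin-negative libraries. Of 6 Sertoli cell markers, led by Aard, 3 were higher, with sums of 121 FPKM in both laminin-positive and 60.3 to 65.0 FPKM in laminin-negative libraries. Of 6 germ cell markers 5 were higher and 1, Kit, was lower, and with it the list summed to 23.1 to 23.2 FPKM in laminin-positive against 46.0 to 46.4 FPKM in laminin-negative libraries. Of 6 endothelial markers 1 was higher and 2 lower. Cdh5 stood at 9.89 and 9.25 FPKM in laminin-positive and at 165 and 173 FPKM in laminin-negative libraries, whereas Pecam1, Kdr and Vwf were under 1 FPKM in every library. The 10 lymphocyte markers summed to between 2.59 and 2.73 in laminin-positive and between 1.98 and 2.11 FPKM in laminin-negative libraries. Most of that came from Lck, which was called higher, and Cd3e, Cd3g and Nkg7 were listed at 0 throughout. Of 5 platelet markers Pf4 was called higher and Ppbp was listed at 0, with sums of 8.43 to 9.88 FPKM in laminin-positive against 1.42 to 2.01 FPKM in laminin-negative libraries. The 4 erythroid markers found summed to at most 1.69 FPKM, Epor was called lower and Slc4a1 was listed at 0.

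Prkcb, a classical isoform best known from B cells and other blood cells (chromosome 7, 122288751 to 122634402, plus strand, GRCm38, GENCODE M21), stood at 46.0 and 50.9 FPKM in laminin-positive libraries, against 0.707 and 0.670 FPKM in laminin-negative libraries. Both laminin-positive libraries lay far above both laminin-negative ones, and the replicates of each population were close together. The means were 48.5 ± 3.49 FPKM in laminin-positive and 0.689 ± 0.0264 FPKM in laminin-negative libraries (SD, n = 2 each), a ratio of 70.4 and a log2(FPKM + 1) difference of 4.87. The ratio rests on a denominator under 1 FPKM, and the log scale with its pseudocount of 1 gives a smaller difference. Prkcb passed the filter on low values only through the laminin-positive libraries. It was in 8th place among all tested genes by log2 difference, after Mcam at 4.98 and before Sh3bgr at 4.83. In bulk samples, fewer cells of a type and less RNA per cell cannot be told apart. In the same libraries 6 of 6 smooth muscle, 6 of 6 pericyte, 5 of 7 macrophage, 3 of 6 Sertoli and 5 of 6 germ cell markers were higher, and their part in the Prkcb value was not tested. The highest macrophage marker, Lyz2, stood at 11.9 and 11.6 FPKM in laminin-positive and at 1.95 and 0.586 FPKM in laminin-negative libraries. The B cell genes Cd79a and Ms4a1 were at most 0.367 FPKM in laminin-positive and at most 0.591 FPKM in laminin-negative libraries. The part of B cells in the Prkcb value was not tested either.

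The 5 tested genes with the level pattern closest to Prkcb, by Euclidean distance of log2(FPKM + 1) over the 4 libraries, were Fam229a, Popdc2, Itga8, Pla1a and Itga1. Their distances ran from 0.354 for Fam229a to 0.807 for Itga1. Popdc2 encodes a cyclic AMP-binding membrane protein of muscle, and averaged 43.3 ± 2.71 FPKM in laminin-positive and 0.944 ± 0.126 FPKM in laminin-negative cells. Itga8 and Itga1 encode integrin alpha chains, and Itga8 averaged 33.3 ± 1.32 FPKM in laminin-positive and 0.659 ± 0.0693 FPKM in laminin-negative cells (SD, n = 2 each). With 4 libraries in 2 groups, this likeness reflects a shared level and a shared difference only.

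Promoter sequence is shown for the classical pair Prkcb and Prkca, since Prkcb has the largest difference of the family and Prkca is its closest relative by class. The windows hold 250 bases before to 50 after the RefSeq start (GRCm38.p6), and both starts coincide with the ends of the deposited loci. Prkcb lies at chr7:122288875-122289174 on the plus strand and Prkca at chr11:108343839-108344138 on the minus strand. Capitals mark the GC box (GGGCGG), the E box CAGCTG and the octamer (ATGCAAAT), searched on both strands. No marked motif overlaps another.
Prkcb promoter: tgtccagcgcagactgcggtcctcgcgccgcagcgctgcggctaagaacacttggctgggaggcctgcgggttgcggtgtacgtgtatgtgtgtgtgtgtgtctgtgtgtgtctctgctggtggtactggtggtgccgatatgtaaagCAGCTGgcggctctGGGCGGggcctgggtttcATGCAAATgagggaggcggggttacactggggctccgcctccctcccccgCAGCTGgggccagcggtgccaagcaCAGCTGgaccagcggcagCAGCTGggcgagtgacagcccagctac
Prkca promoter: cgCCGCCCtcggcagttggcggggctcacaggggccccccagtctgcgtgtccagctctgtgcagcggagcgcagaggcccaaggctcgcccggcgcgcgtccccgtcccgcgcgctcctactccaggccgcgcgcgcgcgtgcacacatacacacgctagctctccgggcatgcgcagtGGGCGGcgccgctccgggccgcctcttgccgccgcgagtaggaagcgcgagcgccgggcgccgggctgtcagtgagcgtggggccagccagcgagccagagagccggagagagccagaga

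The Prkcb window held 4 copies of CAGCTG, 1 GC box and 1 octamer, with 65.3% G and C and 19 CpG. The Prkca window held 2 GC boxes and neither of the other motifs, with 75.3% G and C and 42 CpG. Over all 32851 RefSeq promoter windows of this length, 16.3% held CAGCTG, 1.74% the octamer and 35.7% a GC box, at a median of 52.7% G and C. A CArG box, the site of serum response factor in smooth muscle promoters, was found in 1.63% of all windows and in none of those matched to the members. The TATAAA and CCAAT motifs were absent from both printed windows. RefSeq windows were matched for 7 of the 9 members, among them Prkcq, Prkci, Prkcz, Prkd1 and Prkcd. The 2 windows with CAGCTG outside Prkcb were further starts of Prkcz and Prkcd, and the octamer was found in the Prkcb window alone among the members. The CAGCTG and octamer motifs were chosen after the Prkcb sequence was seen. A match is a description of letters and not a binding site.

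**Figure D1:**
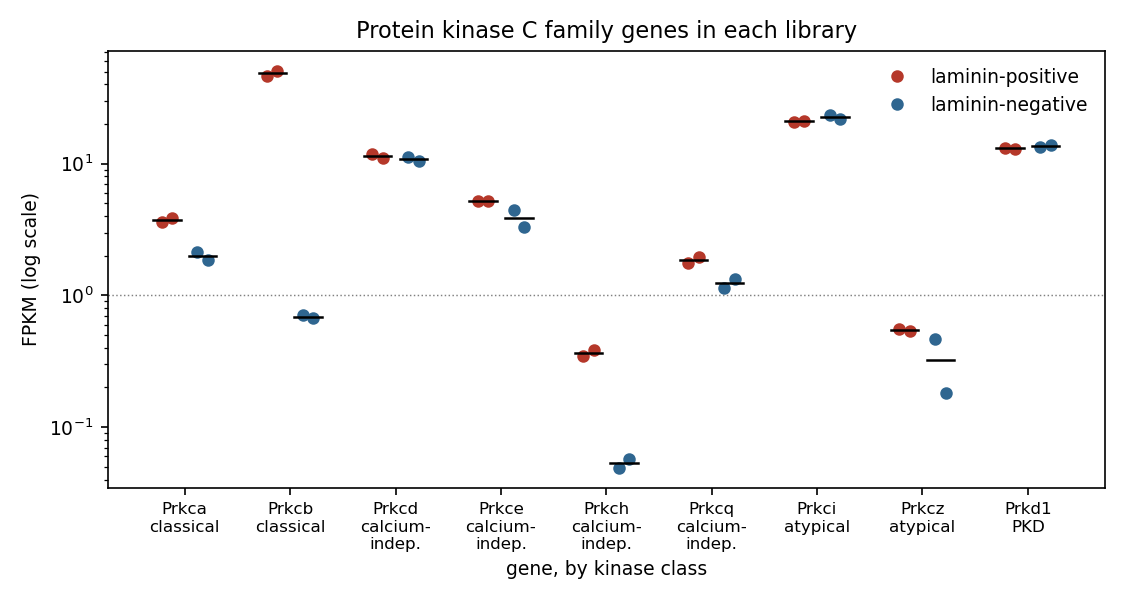
FPKM (log axis) of the 9 genes in each library, with laminin-positive libraries (red) left of laminin-negative libraries (blue), bars at the mean of 2 libraries and a dotted line at 1 FPKM. Prkcb stands at 46.0 and 50.9 FPKM in laminin-positive and at 0.707 and 0.670 FPKM in laminin-negative libraries, while Prkcd, Prkci and Prkd1 sit at like levels in both.

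Prkca, the other classical member (chromosome 11, 107933387 to 108343928, minus strand), is the most widely expressed classical isoform. It stood at 3.63 and 3.90 FPKM in laminin-positive and at 2.14 and 1.85 FPKM in laminin-negative libraries. The populations did not overlap. The ratio of means was 1.89 and the log2 difference 0.67 (SE 0.12, limma adjusted p = 6.23e-04), so Prkca rose in laminin-positive cells. Without variance shared across genes the call was lost (adjusted p = 0.0570). An exon of Apoh overlaps Prkca on the opposite strand, and Apoh was at most 0.0608 FPKM in any library. Within each library the order of the classical pair turned round: Prkcb over Prkca was 12.9 ± 0.278 in the laminin-positive and 0.346 ± 0.0213 in the laminin-negative population (SD, n = 2 each).

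Besides Prkcb, 6 members were tested, and limma called 3 of them higher (Prkca, Prkce and Prkcq) and 0 lower, with 3 and 0 at an unadjusted p under 0.05. Over all tested genes 26.6% were called higher, and since the family was chosen from this comparison nothing is read from the count. Of the 7 tested members, 4 (Prkca, Prkcb, Prkce and Prkcq) had both laminin-positive libraries above both laminin-negative ones, as did 39.4% of all tested genes. Another 2 had both below, as did 37.8% (77.2% in either direction). The 4 include Prkcb, which was picked for its difference, so nothing is read from these counts either. The remaining tested member, Prkcd, overlapped.

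Among the calcium-independent members, Prkcd, a broadly expressed isoform (chromosome 14, 30595354 to 30626210, minus strand), stood at 11.9 and 11.1 FPKM in laminin-positive and at 11.3 and 10.4 FPKM in laminin-negative libraries. The populations overlapped. The log2 difference was 0.07 (95% interval −0.13 to 0.28, limma adjusted p = 0.531). The interval holds no difference in either direction as large as the one of Prkca.

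Prkce, a relative of Prkcd known for cardiac and neuronal roles (chromosome 17, 86167785 to 86657919, plus strand), stood at 5.23 and 5.26 FPKM in laminin-positive and at 4.48 and 3.32 FPKM in laminin-negative libraries. Its exons overlap those of the same-strand transcript AC154542.1, so reads of the pair may not be told apart. The populations did not overlap, and the laminin-negative libraries spread much more than the laminin-positive ones. The log2 difference was 0.36 (SE 0.13, limma adjusted p = 0.0361). Of 13 alternatives, 7 kept the call, and the highest adjusted p was 0.267, without variance shared across genes. The filter of 5 FPKM is among the 7. Prkce passed that filter through the laminin-positive libraries only, so that call adds no support. Without laminin-negative replicate 2 the log2 difference was 0.19 and the call was lost (0.212), whereas without laminin-negative replicate 1 it was 0.53. Without laminin-positive replicate 1 or replicate 2 the difference stayed at 0.36, but the call was lost with fewer libraries (0.0951 and 0.104).

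Prkcq, best known as the isoform of T cells (chromosome 2, 11172108 to 11301222, plus strand), stood at 1.78 and 1.96 FPKM in laminin-positive and at 1.14 and 1.32 FPKM in laminin-negative libraries. The populations did not overlap, but all values were near the filter of 1 FPKM. The log2 difference was 0.36 (SE 0.12, limma adjusted p = 0.0297), and 6 of 12 alternatives kept the call. It was lost when laminin-negative replicate 1 was left out (0.0922), and likewise for laminin-positive replicate 1 (0.0675) and replicate 2 (0.159), and the adjusted p lay between 0.0117 and 0.159. The T cell receptor genes Cd3e and Cd3g were listed at 0 in every library, and Cd3d was at most 0.178 FPKM. Lck, a kinase of T cells, stood at 1.91 and 1.93 FPKM in laminin-positive and at 1.14 and 1.37 FPKM in laminin-negative libraries and was called higher (limma adjusted p = 0.0249). The part of T cells in the Prkcq value was not tested.

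Prkch, a relative of Prkcd described mainly in epithelia and lymphocytes (chromosome 12, 73584796 to 73778185, plus strand), was below the filter. It stood at 0.346 and 0.387 FPKM in laminin-positive and at 0.0492 and 0.0577 FPKM in laminin-negative libraries. The populations did not overlap, and the ratio of means was 6.85. At these levels the counting error is unknown, and the log2(FPKM + 1) difference was 0.37. When no filter was applied, limma gave adjusted p = 0.00317 for Prkch and 0.172 for Prkcz, the other member below the filter.

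Prkci, the atypical member that pairs with Par6 and Par3 (chromosome 3, 30995747 to 31052959, plus strand), was the highest member in laminin-negative cells. It stood at 20.8 and 21.1 FPKM in laminin-positive and at 23.5 and 21.8 FPKM in laminin-negative libraries. Laminin-positive libraries were slightly lower, without overlap. The log2 difference was −0.10 (95% interval −0.28 to 0.08, limma adjusted p = 0.312), and it became 0.01 with equal FPKM sums.

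Prkcz, the other atypical member (chromosome 4, 155260129 to 155361361, minus strand), was below the filter at 0.556 and 0.540 FPKM in laminin-positive and at 0.465 and 0.181 FPKM in laminin-negative libraries. The laminin-negative libraries spread more widely than the gap between populations. Prkci over Prkcz was 38.3 ± 1.17 in the laminin-positive and 85.2 ± 49.1 in the laminin-negative population (SD, n = 2 each), so the atypical level came almost wholly from Prkci in both.

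Prkd1 (chromosome 12, 50341231 to 50649098, minus strand) stood at 13.19 and 13.04 FPKM in laminin-positive and at 13.3 and 14.0 FPKM in laminin-negative libraries. The values did not overlap but lay within 1 FPKM of each other. The log2 difference was −0.05 (95% interval −0.24 to 0.14, limma adjusted p = 0.617), and 0.06 with equal FPKM sums. A p that misses the threshold does not show that Prkcd, Prkci or Prkd1 were equal between populations.

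**Figure D2:**
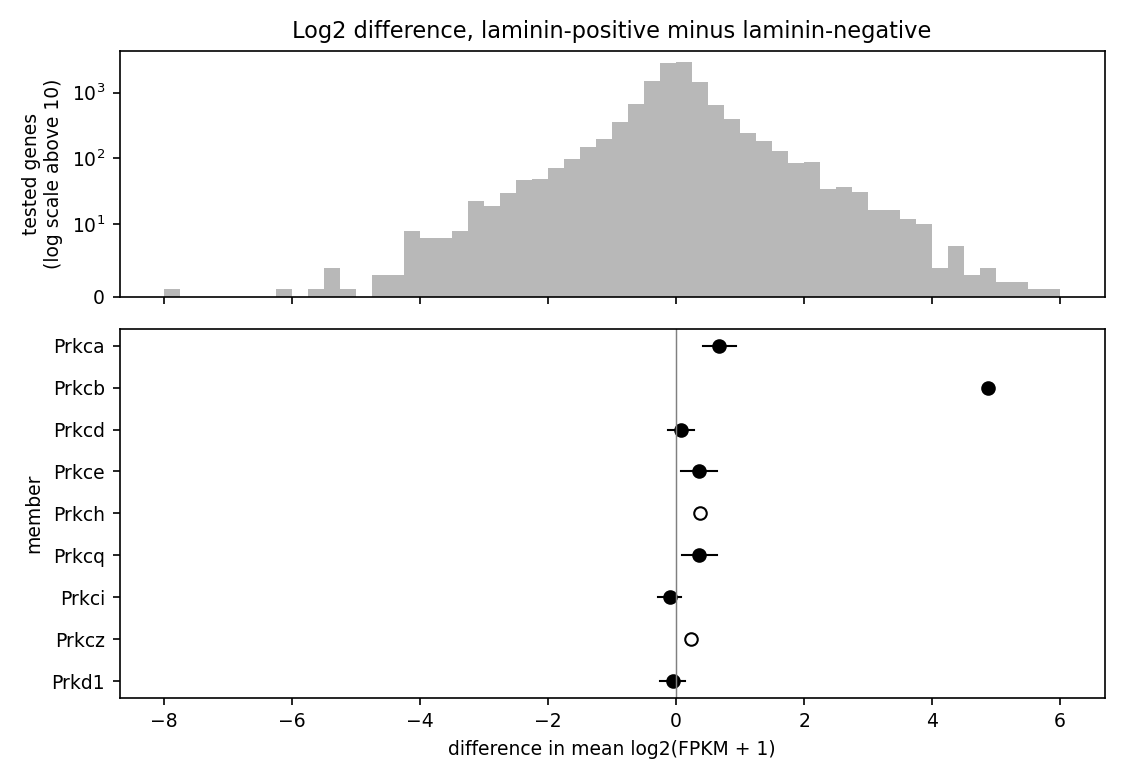
Top, number of tested genes by difference in mean log2(FPKM + 1), laminin-positive minus laminin-negative, in bins of 0.25 (count axis logarithmic above 10). Bottom, the same difference for each member, with 95% limma intervals for the 6 tested members other than Prkcb and open circles for Prkch and Prkcz, which were below the filter; Prkcb lies at 4.87 and the others between −0.10 and 0.67.

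By its name FPKM is per length, so the members are set beside each other within a library. The scaling used is not given, so the order rests on that name. In laminin-positive cells the order of mean levels was Prkcb, Prkci, Prkd1, Prkcd, Prkce, Prkca, Prkcq, Prkcz and Prkch. In laminin-negative cells it was Prkci, Prkd1, Prkcd, Prkce, Prkca, Prkcq, Prkcb, Prkcz and Prkch. The other 8 members kept the same order in both populations, and Prkcb was first in laminin-positive and seventh in laminin-negative cells. No neighbours in either order overlapped in their 2 libraries. The closest were Prkd1 and Prkcd, with ratios of means of 1.14 in the laminin-positive and 1.26 in the laminin-negative population. The spread of 2 libraries holds no error from the transcript lengths used, so a lack of overlap alone does not settle the order.

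The 9 genes summed to 103.5 and 108 FPKM in laminin-positive and to 57.1 and 53.6 FPKM in laminin-negative libraries. Without Prkcb the sums were 57.5 and 57.3 FPKM in laminin-positive and 56.4 and 52.9 FPKM in laminin-negative libraries. The gap between the family sums was thus almost all Prkcb FPKM. Prkcb made up 45.8% ± 1.87 of the summed FPKM in the laminin-positive and 1.24% ± 0.00737 in the laminin-negative population (SD, n = 2 each). The classical share was 49.3% ± 1.94 in the laminin-positive and 4.85% ± 0.193 in the laminin-negative population. The share of the calcium-independent class (Prkcd, Prkce, Prkch and Prkcq, without the atypical genes) was 17.9% ± 0.987 for laminin-positive and 29.0% ± 1.05 for laminin-negative cells. The atypical share was 20.3% ± 0.460 in the laminin-positive and 41.4% ± 0.699 in the laminin-negative population, and that of Prkd1 12.4% ± 0.489 in the laminin-positive and 24.7% ± 1.94 in the laminin-negative population. In FPKM the calcium-independent class summed to 19.0 ± 0.452 in the laminin-positive and 16.1 ± 1.29 in the laminin-negative population, and the atypical genes to 21.5 ± 0.186 in the laminin-positive and 22.9 ± 1.40 in the laminin-negative population. The smaller shares in laminin-positive cells thus stood beside like FPKM sums. These shares are descriptions, since Prkcb was chosen for its difference, and they rest on the same length scaling.

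**Figure D3:**
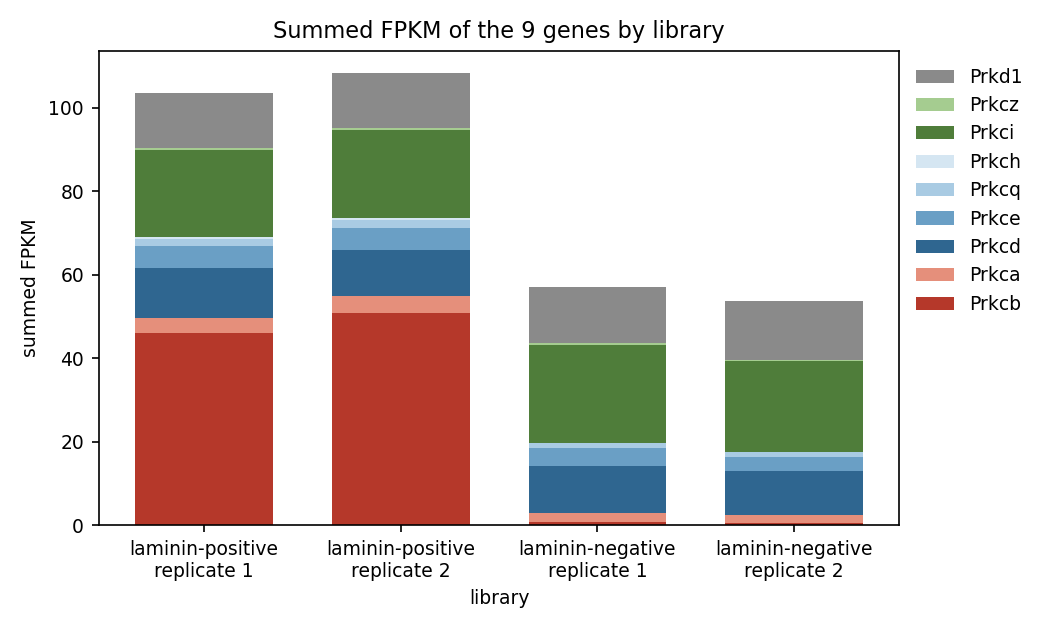
Summed FPKM of the 9 genes in each library, laminin-positive on the left and laminin-negative on the right, with classical genes in red, the Prkcd to Prkcq class in blue, atypical in green and Prkd1 in grey. Without Prkcb the laminin-positive sums are 57.5 and 57.3 FPKM and the laminin-negative sums 56.4 and 52.9 FPKM.

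Genes that act with protein kinase C were taken as 9 lists with 78 genes, all found in the table, of which 57 were tested. By limma, 22 (38.6%) rose and 14 (24.6%) fell in the laminin-positive population, against 26.6% and 26.3% of all tested genes. Their median log2 difference was 0.13, against 0.01 over all tested genes. The lists were chosen with earlier results of these data known. Nothing is therefore read from these shares and medians, or from those of the single lists below. With equal FPKM sums 28 of the 57 were higher and 10 lower, and ordinary least squares per gene called 12 higher and 5 lower. Among the genes named below, that model lost the calls of Gna11, Plcd1, Plcd3, Dgke, Dgkz, Dgkd, Chn2, Phlpp1, Mtor, Rack1, Llgl2, Sqstm1 and Ppp1r14a. Their adjusted p under it lay between 0.0585 for Chn2 and 0.246 for Llgl2. Of the 22 that rose, 6 (Plce1, Dgkh, Chn2, Akap5, Pard6b and Llgl2) passed the filter through the laminin-positive libraries only, and of the 14 that fell, Add2 passed it through the laminin-negative libraries only. These had to differ to be tested, so their calls add no support to the counts and medians, and their differences are given as descriptions.

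Of 6 related kinases 4 were tested and 0 called, with 0 at an unadjusted p under 0.05 (median log2 difference −0.07). The highest was Prkd3, a relative of Prkd1, at 21.5 and 23.9 FPKM in laminin-positive and 20.1 and 20.7 FPKM in laminin-negative libraries. It did not pass (limma adjusted p = 0.174), although it was called higher with equal FPKM sums (0.0313).

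Upstream, the Gq-class alpha subunits couple receptors to phospholipase C beta, and 2 of 3 tested were lower, with 0 higher (median log2 difference −0.33). Gna14 stood at 2.39 and 2.63 FPKM in laminin-positive and at 13.4 and 14.1 FPKM in laminin-negative libraries, without overlap. It fell by 2.08 on the log2 scale (SE 0.10, limma adjusted p = 3.75e-08). Gna11 stood at 34.1 and 33.0 FPKM in laminin-positive and 43.8 and 41.1 FPKM in laminin-negative libraries (limma adjusted p = 0.00383, but 0.0525 with equal FPKM sums). Gnaq, at 27.0 and 27.2 FPKM in laminin-positive and 23.4 and 24.2 FPKM in laminin-negative libraries, did not pass (limma adjusted p = 0.0702), although it did with equal FPKM sums (0.0104).

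Of 12 phospholipase C genes, which make diacylglycerol, 6 were tested, 3 were higher and 1 lower (median log2 difference 0.16). Plce1, a form regulated by Ras-type GTPases, stood at 2.07 and 2.35 FPKM in laminin-positive and at 0.3002 and 0.287 FPKM in laminin-negative libraries (log2 difference 1.31). Plce1 passed the filter through the laminin-positive libraries only, so its call adds no support. Plcb4, the highest of the list, stood at 29.0 and 30.2 FPKM in laminin-positive and 23.6 and 23.9 FPKM in laminin-negative libraries (limma adjusted p = 0.00614, but 0.0611 without laminin-positive replicate 2). Plcd3 was higher (limma adjusted p = 0.00508, but 0.0554 without laminin-positive replicate 1), and Plcd1 was lower, at 20.05 and 17.8 FPKM against 27.2 and 25.8 FPKM in laminin-negative libraries.

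Diacylglycerol kinases convert diacylglycerol to phosphatidic acid, and of 10 genes 6 were tested, 4 higher and 0 lower (median log2 difference 0.33). Dgkh stood at 2.95 and 3.13 FPKM in laminin-positive and at 0.584 and 0.438 FPKM in laminin-negative libraries (log2 difference 1.42). Dgkh passed the filter through the laminin-positive libraries only, so its call adds no support. The other 3 that were higher, Dgke, Dgkz and Dgkd, had log2 differences of 0.50, 0.35 and 0.31. Dgke and Dgkz lost the call without laminin-positive replicate 2 (adjusted p = 0.0618 and 0.0565). Dgkd lost it without laminin-negative replicate 2 (0.0523) or laminin-positive replicate 1 (0.0640).

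The list of other diacylglycerol-binding proteins had 4 of 6 tested genes higher and 2 lower (median log2 difference 0.89). Whether each listed gene encodes a diacylglycerol-binding type of domain was not checked. Chn1, a chimaerin that switches off Rac GTPases, stood at 19.3 and 19.3 FPKM in laminin-positive and at 4.38 and 4.46 FPKM in laminin-negative libraries (log2 difference 1.90, SE 0.09, limma adjusted p = 3.05e-08). Its relative Chn2 averaged 1.42 ± 0.263 FPKM in laminin-positive and 0.271 ± 0.00101 FPKM in laminin-negative cells (SD, n = 2 each). Unc13b, a vesicle priming factor, averaged 4.63 ± 0.496 FPKM in laminin-positive and 1.14 ± 0.120 FPKM in laminin-negative cells. Rasgrp2, an exchange factor for Rap GTPases and the highest of the list, stood at 47.3 and 44.7 FPKM in laminin-positive and 26.0 and 23.6 FPKM in laminin-negative libraries (limma adjusted p = 6.19e-06). All 4 rises were without overlap, but Chn2 passed the filter through the laminin-positive libraries only, so its rise adds no support. The call of Chn2 was lost with ordinary least squares per gene (adjusted p = 0.0585).

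**Figure D4:**
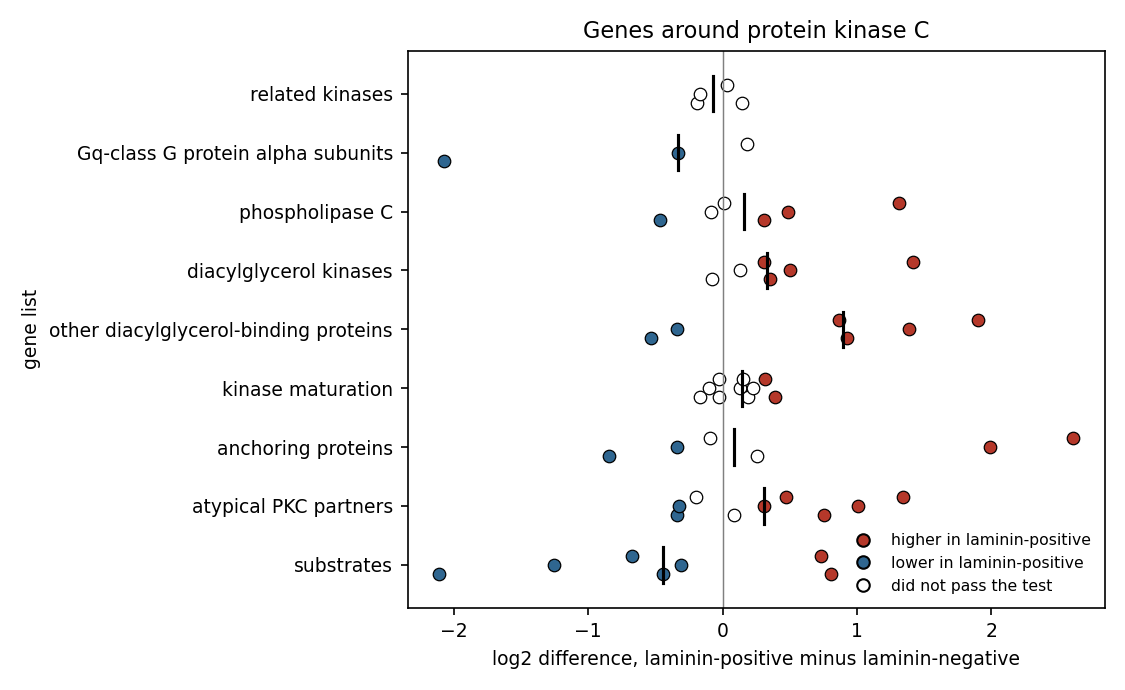
Log2 difference, laminin-positive minus laminin-negative, of the 57 tested genes in 9 lists of genes that act with protein kinase C; red points were called higher, blue lower, open points did not pass, and black bars are list medians. The diacylglycerol-binding list has its median at 0.89 and the substrate list at −0.44.

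Genes for kinase maturation, which covers the chaperones and kinases that ready the enzyme and the phosphatases that reverse it, had 2 of 10 higher and 0 lower (median log2 difference 0.14). Phlpp1, a phosphatase of the hydrophobic motif, and Mtor, the kinase of the complex that phosphorylates it, had log2 differences of 0.39 and 0.32. Both lost the call without laminin-positive replicate 1 (adjusted p = 0.0556 and 0.196), and Mtor also without laminin-negative replicate 2 (0.131). The chaperones Hsp90ab1 and Hsp90aa1, the highest of the list, did not pass, at limma adjusted p = 0.311 and 0.813.

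Of 6 anchoring proteins 2 were higher and 2 lower (median log2 difference 0.08). Akap5, a scaffold for protein kinases A and C, stood at 6.67 and 7.01 FPKM in laminin-positive and at 0.291 and 0.283 FPKM in laminin-negative libraries (log2 difference 2.61). Akap5 passed the filter through the laminin-positive libraries only, so its call adds no support. Sdpr, a caveolar protein also named cavin 2, stood at 54.7 and 60.5 FPKM in laminin-positive and 13.8 and 13.6 FPKM in laminin-negative libraries (log2 difference 1.99, SE 0.08, limma adjusted p = 9.29e-09). The scaffolds went both ways, since Akap12 fell by 0.84 on the log2 scale, at 39.1 and 39.4 FPKM in laminin-positive and 73.2 and 69.2 FPKM in laminin-negative libraries. Rack1, the receptor for activated C kinase and the most abundant of the list, stood at 1147 and 1071 FPKM in laminin-positive and 1363 and 1450 FPKM in laminin-negative libraries (limma adjusted p = 0.00612). That call was lost without laminin-positive replicate 2 (0.127) and under quantile normalization (0.634). Cavin3, which binds protein kinase C delta, did not pass (limma adjusted p = 0.278).

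Partners of the atypical isoforms had 5 of 9 genes higher and 2 lower (median log2 difference 0.31). The 5 include Pard6b and Llgl2, which passed the filter through the laminin-positive libraries only, so their calls add no support. Prkci itself was not called, and Prkcz was below the filter and not tested. Pard6b and Pard6g encode Par6 proteins, which bind atypical protein kinase C. Pard6b stood at 2.44 and 1.99 FPKM in laminin-positive and at 0.343 and 0.1997 FPKM in laminin-negative libraries (log2 difference 1.34). Pard6g stood at 5.15 and 5.72 FPKM in laminin-positive and 2.26 and 2.13 FPKM in laminin-negative libraries (log2 difference 1.01, SE 0.11, limma adjusted p = 2.32e-05). Wwc1, the scaffold KIBRA, stood at 5.65 and 5.35 FPKM in laminin-positive and 2.95 and 2.77 FPKM in laminin-negative libraries. Of the 6 Sertoli cell markers, which mark an epithelial cell, Aard, Amh and Dhh were higher in the same libraries, Sox9 and Gata1 did not pass and Rhox5 was below the filter, and their part in these values was not tested. Llgl2, a polarity protein, had a log2 difference of 0.47, which was 0.30 without laminin-negative replicate 1, and its call was lost without that library (adjusted p = 0.140) or laminin-positive replicate 1 (0.136). Sqstm1, a scaffold also named p62, was lower (limma adjusted p = 0.00278, but 0.0524 without laminin-positive replicate 2), and Cdc42, the highest of the list, did not pass (0.391), although it was called higher with equal FPKM sums (0.0364).

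Substrates had 2 of 7 tested genes higher and 5 lower (median log2 difference −0.44). The 5 include Add2, which passed the filter through the laminin-negative libraries only, so its call adds no support. Marcks, which binds membrane lipids and actin until phosphorylated, stood at 44.2 and 53.3 FPKM in laminin-positive and at 205 and 221 FPKM in laminin-negative libraries. The populations lay far apart, and Marcks fell by 2.11 on the log2 scale (SE 0.09, limma adjusted p = 1.69e-08). Its relative Marcksl1 rose, at 154 and 159 FPKM in laminin-positive and 90.4 and 88.3 FPKM in laminin-negative libraries (log2 difference 0.80, SE 0.07, limma adjusted p = 3.31e-06). Add3, the membrane skeleton protein gamma adducin, fell by 1.25, at 32.3 and 33.1 FPKM in laminin-positive and 79.8 and 78.8 FPKM in laminin-negative libraries. Ppp1r14a encodes CPI-17, the myosin phosphatase inhibitor of smooth muscle that protein kinase C activates. It stood at 218 and 194 FPKM in laminin-positive and 133 and 114 FPKM in laminin-negative libraries (limma adjusted p = 6.02e-05, log2 difference 0.73, SE 0.09). Ordinary least squares per gene gave it adjusted p = 0.0938.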

How the data were processed

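Per the labels' protocols, total RNA of sorted cells was extracted with a micro kit and made into directional libraries. Values are FPKM per gene and library, per the file headers, as the authors deposited them. TopHat2 2.1.1 and Cufflinks 2.2.1 are listed, with no role, per the submitters' processing notes. For build, annotation, strand setting and scaling, the sources used here give nothing. Of 21203 loci with a unique symbol, 99.6% overlapped the GENCODE M21 gene of that name, so GRCm38 positions are given. FPKM holds no counts. In 1-transcript genes, at most 30.04% of low values lay within 0.1 of a whole multiple of the best step, where evenly spread values give 20%, so no depth was recovered.

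Genes with at least 1 FPKM in at least 2 libraries were compared on log2(FPKM + 1) with limma 3.58.1 (R 4.3.3), moderated along an intensity trend, with two-sided p-values and no replicate term, adjusted by Benjamini-Hochberg over all 12348 genes at 0.05. Residual degrees of freedom were 2, and the prior added 8.21 at the median. The log scale understates the change of low genes. An exact permutation test of 2 against 2 cannot go below p = 0.333. The script was tested on simulated data. Members, lists, tests and alternatives were chosen with earlier results of these data known. Named are all members, the 5 tested genes nearest to Prkcb, the genes ranked next to Prkcb, and in each list of acting genes the 4 called genes with the largest change and the 2 highest by level, besides the markers singled out after their values were seen. Some genes of the lists are not reported here by name. Rack1 and Cavin3 were matched by an older symbol, and equal FPKM sums leave out Rn45s. The RefSeq proteins were not analysed here.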

Additional observations from a re-analysis of the deposited data

How the results depend on the processing

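Alternatives were another pseudocount, no or a stricter filter, other variance models, 3 other scalings, a replicate block and leaving out each library. Prkcb was higher in laminin-positive cells in all 13, with log2 differences up to 5.94 at a pseudocount of 0.1 and 4.96 with equal FPKM sums. The family was picked for this Prkcb difference in the same libraries, so its direction in all 13 adds no support. Besides Prkcb, limma called 1 member higher instead of 3 with a filter of 5 FPKM, at which Prkca and Prkcq are no longer tested. That member, Prkce, passed this filter through the laminin-positive libraries only, so its call adds no support. Quantile normalization gave 1 higher. Without variance shared across genes 0 were called (2 higher and 0 lower at an unadjusted p under 0.05). Leaving out a library gave 1 to 2. The genes that act with protein kinase C had 14 higher with the stricter filter, at which fewer genes were tested. Some of these, such as Akap5 and Chn1, passed it through the laminin-positive libraries only. The model with no shared variance called 12 higher and 5 lower. That model has 2 residual degrees of freedom and called 1346 higher and 1211 lower over all genes. Without 1 library, the genes acting with protein kinase C gave 16 to 23 higher and 10 to 15 lower. Where no cause is named, the cause was not tested.

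The replicate numbers do not pair the samples by label, and the differences between replicates 1 and 2 correlated at r = 0.0081 between populations, across genes, which are not independent. With the replicate block 3376 genes were higher and 3343 lower, and among members 3 were higher and 0 lower. Values below 1 FPKM, namely those of Prkch, Prkcz and laminin-negative Prkcb, are limited most by the unknown depth.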
